A study of Mus musculus with 12 samples.

Results

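Kidney injury marker genes are transcripts used as read-outs of damaged renal tubule, and 6 of them were followed here in glomerulus-enriched RNA: Havcr1, Lcn2, Spp1, Clu, Sox9 and Krt20. They were chosen by symbol among the 26264 gene symbols of both count tables, and all 6 were found there. The measurements compare BALB/cAjcl (AJcl) with BALB/cByJcl (ByJcl), substrains of the BALB/c inbred mouse, at an age of 8 weeks and in males only. In each substrain 3 libraries came from mice labelled as untreated (baseline) and 3 from mice harvested at Day 5 after a retro-orbital dose of 10 mg/kg adriamycin (ADR, doxorubicin). The treatment protocol speaks of control animals given saline, and whether the baseline mice received it cannot be told from the labels. They name no transgene or deletion in any group, and they do not say whether animals were pooled in a library. Glomeruli were captured on magnetic beads perfused through the heart, so tubule fragments carried along with them are part of each library. The comparisons ask whether tubular injury transcripts in this material moved with ADR and whether they differed between the substrains.

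In the healthy kidney these genes are low or restricted to some nephron segments, and injury to the tubular epithelium is known to raise them. Havcr1 encodes KIM-1, a phosphatidylserine receptor that injured proximal tubule cells place on their surface, and Lcn2 encodes NGAL, a secreted carrier of iron-binding siderophores that is made by stressed distal nephron and by neutrophils. Spp1 encodes osteopontin, a secreted phosphoprotein that binds integrins, and Clu encodes clusterin, a secreted chaperone. Sox9 is a transcription factor that regenerating tubule cells switch on again, and Krt20 is a keratin filament gene of the lower urinary tract lining that appears in injured tubule.

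On the GRCm39 build, GENCODE places Havcr1 at chr11:46625907-46670405 on the plus strand, Krt20 at chr11:99319227-99328985 on the minus strand and Sox9 at chr11:112673009-112678586 on the plus strand. Lcn2 lies at chr2:32274645-32278264 on the minus strand, Spp1 at chr5:104582165-104589235 on the plus strand and Clu at chr14:66190200-66218999 on the plus strand. All 6 are annotated as protein coding, and the counts cover their exons. The lncRNA BC006965 covers the 5578 bases of Sox9 on the opposite strand and held 0 to 6 counts per library, against 8 to 48 for Sox9. Scara3 overlaps 1202 bases of the Clu locus on the opposite strand and held 8 to 90 counts, against 1066 to 3429 for Clu. The strand setting of the counting is not given in the sources used here, so reads from these pairs cannot be told apart. Havcr1 has a close relative, Timd2, and how the counting treated reads shared between the pair is not given in the sources used here, so its level may be uncertain.

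Total counts per library lay between 42198416 and 54687045, and 77.1% to 82.9% of the counts from 1 to 49 were even numbers, so fewer fragments than counts may stand behind a low value. Levels below are CPM, counts scaled to the library size after TMM normalization. The summed CPM of 8 podocyte genes ran from 7131 to 20865 over the 12 libraries, and that of the study's 6 tubular markers (Slc12a1, Umod, Aqp2, Lrp2, Slc34a1 and Aqp1) from 339 to 3711, with no marker of either list at 0 in a group. Replicate 1 of AJcl at Day 5 had the highest tubular sum, and the study leaves it out for low glomerular purity. It is shown in every list of values here and is left out of the edgeR fit, which had 11 libraries, 2 of them AJcl at Day 5. A higher or lower level in such bulk RNA cannot tell a change in the number of cells of a type from a change in RNA per cell.

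Osteopontin was by far the most abundant of the 6 transcripts. Per kilobase of exon, the median level over the 12 libraries was 44.6 CPM for Spp1, 6.40 CPM for Clu, 0.256 CPM for Havcr1, 0.141 CPM for Lcn2, 0.124 CPM for Sox9 and 0.0406 CPM for Krt20. Spp1 held 2494 to 18831 counts per library and Clu 1066 to 3429, whereas Havcr1 and Lcn2 stayed at or below 110 counts, Sox9 at or below 48 and Krt20 at or below 12. Spp1 and Clu were therefore limited by the spread between libraries, and the other 4 also by the number of reads.

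**Figure D1:**
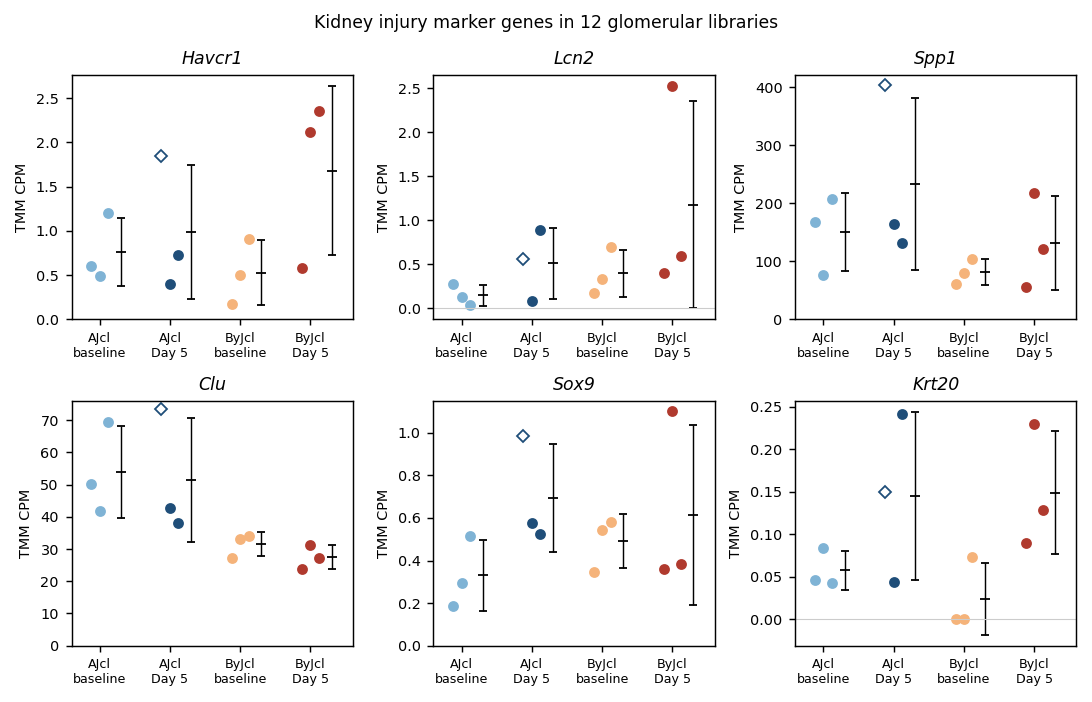
TMM CPM of each injury marker (vertical axis, linear, one scale per gene) in the 4 groups, with 1 point per library, a horizontal dash for the mean and a bar for ± 1 SD of the 3 libraries. The open diamond is replicate 1 of AJcl at Day 5. The ByJcl libraries lie below the AJcl libraries for Clu at both times, while the groups of Spp1 and Havcr1 overlap in every comparison.

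Havcr1, the KIM-1 gene, was at 0.601, 0.485 and 1.20 CPM in AJcl at baseline and at 1.84, 0.398 and 0.725 CPM in AJcl at Day 5, with replicate 1 first. In ByJcl it was at 0.172, 0.503 and 0.911 CPM at baseline and at 0.582, 2.11 and 2.35 CPM at Day 5. Of the 4 highest values, 2 belonged to ByJcl at Day 5 and 1 to the AJcl library that stands apart in tubular sum, while replicate 1 of ByJcl at Day 5 lay within the baseline range. The means were 0.529 ± 0.370 CPM (SD, n = 3) in ByJcl at baseline and 1.68 ± 0.960 CPM (SD, n = 3) at Day 5, against 0.761 ± 0.382 CPM (SD, n = 3) and 0.989 ± 0.759 CPM (SD, n = 3) in AJcl.

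Lcn2, the NGAL gene, was at 0.277, 0.127 and 0.0427 CPM in AJcl at baseline and at 0.558, 0.0884 and 0.886 CPM in AJcl at Day 5. In ByJcl it was at 0.172, 0.336 and 0.692 CPM at baseline and at 0.403, 2.53 and 0.599 CPM at Day 5. A single ByJcl library at Day 5, replicate 2, was far above the other 11, and the 3 lowest values were all AJcl. The mean of ByJcl at Day 5 was 1.18 CPM with an SD of 1.17 CPM (n = 3).

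Spp1, the osteopontin gene, was at 168 (replicate 1), 76.4 and 208 CPM in AJcl at baseline and at 404, 165 and 132 CPM in AJcl at Day 5. In ByJcl it was at 60.1, 79.2 and 104 CPM at baseline and at 55.8, 217 and 121 CPM at Day 5. The highest value was that of replicate 1 of AJcl at Day 5 and the lowest that of replicate 1 of ByJcl at Day 5, so the range within the Day 5 libraries was 7.23-fold. The baseline mean was 151 ± 67.4 CPM (SD, n = 3) for AJcl, against 81.3 ± 22.3 CPM (SD, n = 3) for ByJcl.

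Clu, the clusterin gene, was at 50.2, 41.7 and 69.6 CPM in AJcl at baseline and at 73.5, 42.7 and 38.0 CPM in AJcl at Day 5. In ByJcl it was at 27.2, 33.2 and 34.1 CPM at baseline and at 23.9, 31.3 and 27.3 CPM at Day 5. Every AJcl library was above every ByJcl library, at both times, and the ranges of baseline and Day 5 overlapped within each substrain. The baseline means of AJcl and ByJcl were 53.8 ± 14.3 CPM (SD, n = 3) and 31.5 ± 3.72 CPM (SD, n = 3), and those at Day 5 51.4 ± 19.3 CPM (SD, n = 3) and 27.5 ± 3.69 CPM (SD, n = 3).

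Sox9, the regeneration-associated transcription factor gene, was at 0.185, 0.295 and 0.513 CPM in AJcl at baseline and at 0.987, 0.575 and 0.523 CPM in AJcl at Day 5. In ByJcl it was at 0.344, 0.545 and 0.583 CPM at baseline and at 0.358, 1.10 and 0.385 CPM at Day 5. The AJcl libraries at Day 5 were above those at baseline by a narrow margin, 0.523 against 0.513 CPM at the nearest pair, and the ByJcl groups overlapped.

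Krt20, the keratin 20 gene, was close to the limit of detection. It held 2, 4 and 2 counts in AJcl at baseline, 7, 2 and 12 in AJcl at Day 5, 0, 0 and 4 in ByJcl at baseline and 4, 10 and 6 in ByJcl at Day 5. With 0 counts, levels of up to 0.0645 and 0.0629 CPM (3 counts) remain possible in the 2 ByJcl baseline libraries, for counting error only. If fewer fragments than counts stand behind a low value, these limits would be higher. The ByJcl libraries at Day 5 ran from 0.0896 to 0.230 CPM and those at baseline up to 0.0729 CPM, so the groups did not overlap in CPM, although the nearest libraries held the same 4 counts and were set apart by the scaling alone.

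None of the 6 injury markers was called after ADR in either substrain. In AJcl, 0 of 6 passed an adjusted p of 0.05 (edgeR quasi-likelihood test, Benjamini-Hochberg over 17002 genes), where 53 genes or 0.312% of all tested genes did. In that comparison 0 members had an unadjusted p under 0.05 and DESeq2 called 0. In ByJcl, 0 of 6 were called by edgeR, against 1800 genes or 10.6% of all, and DESeq2 also called 0. Havcr1 was the member with an unadjusted p under 0.05 there, a share of members to be read beside 26.8% of all genes. By non-overlap of the 12 libraries, Sox9 stood apart in AJcl (1 of 6, against 13.4% of all tested genes) and Krt20 in ByJcl (1 of 6, against 33.1%).

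The fitted response of Havcr1 in ByJcl was a log2 fold change of 1.65 ± 0.65 (SE), 3.13-fold, with an adjusted p of 0.133 in edgeR and 0.0673 in DESeq2. In AJcl it was -0.41 ± 0.74 (SE, adjusted p = 0.906 in edgeR). The difference between these responses, tested as the substrain by treatment interaction, was 2.05 ± 0.99 (SE, adjusted p = 0.634 in edgeR). Without replicate 3 of ByJcl at baseline the ByJcl response was 2.30 and the interaction 2.71, and with all 12 libraries the interaction was 1.28, none of them called. With the log2 tubular sum of each library as a covariate the ByJcl value was 1.96 and passed the threshold (adjusted p = 0.0134 in edgeR). That fit called 7.35% of all genes higher in ByJcl at Day 5, against 5.75% in the main fit. The tubular sum ran from 396 to 1473 CPM in ByJcl at baseline and from 339 to 1276 CPM at Day 5.

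Lcn2 had positive log2 fold changes in both substrains, 1.73 ± 1.09 (SE) in AJcl and 1.52 ± 0.92 (SE) in ByJcl, and neither was called (adjusted p = 0.682 and 0.32 in edgeR). The AJcl value was -0.74 without replicate 3 of AJcl at Day 5, 2.57 without replicate 2 of AJcl at Day 5 and 2.49 without replicate 1 of AJcl at baseline. The ByJcl value was 0.30 without replicate 2 of ByJcl at Day 5 and 2.19 without replicate 3 of ByJcl at baseline. Krt20 had 1.29 ± 1.12 (SE) in AJcl and 2.39 ± 1.12 (SE) in ByJcl with adjusted p of 0.784 and 0.202 in edgeR, values that rest on the few reads given above and depend on the prior count. Without replicate 3 of ByJcl at baseline the remaining baseline libraries had 0 counts and the fitted ByJcl value was 5.81, which is no bound. The AJcl value of Krt20 was -0.39 without replicate 3 and 2.02 without replicate 2 of AJcl at Day 5. Spp1 had a log2 fold change of 0.00 ± 0.49 (SE) in AJcl and 0.68 ± 0.44 (SE) in ByJcl, neither called. For Clu the values were below 0 in both substrains, -0.40 ± 0.19 (SE) and -0.21 ± 0.17 (SE), and for Sox9 they were 0.74 ± 0.61 (SE) and 0.31 ± 0.54 (SE), the latter turning to -0.41 without replicate 2 of ByJcl at Day 5. The median over the 6 members was 0.37 in AJcl and 1.10 in ByJcl, beside medians of all genes of -0.01 and 0.01. With replicate 1 of AJcl at Day 5 in the fit, the AJcl values of Havcr1 and Spp1 turned to 0.38 and 0.63, still without a call.

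**Figure D2:**
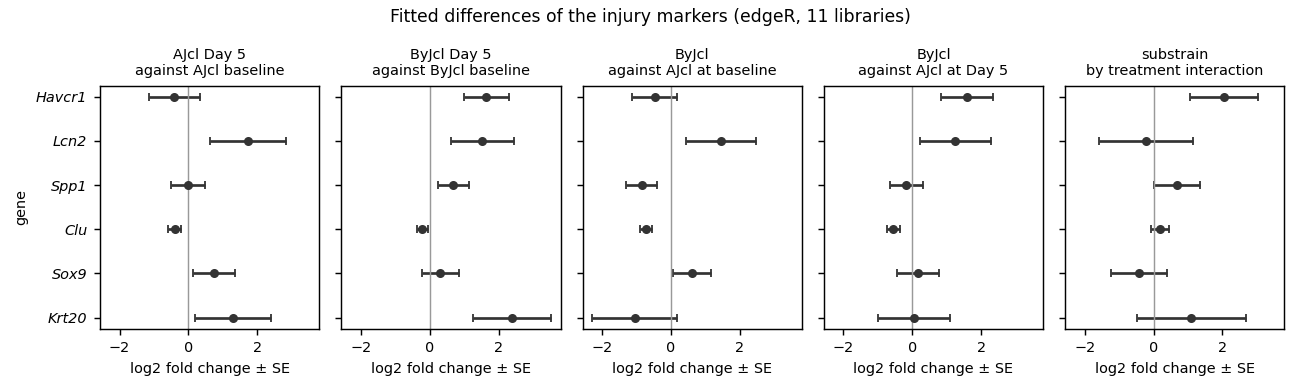
Log2 fold change (horizontal axis, edgeR, 11 libraries) of each marker in the 5 comparisons, with bars of ± 1 SE. Havcr1 lies at 1.65 in ByJcl after ADR and at -0.41 in AJcl, Clu has the shortest bars and lies below 0 in both comparisons of the substrains, and no value passed an adjusted p of 0.05.

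Clusterin was the marker whose libraries did not overlap between the substrains. At baseline its log2 fold change of ByJcl against AJcl was -0.74 ± 0.17 (SE), 0.600-fold, with an unadjusted p of 0.00126 and an adjusted p of 0.273 in edgeR, so it was not called. DESeq2 called it (-0.76, adjusted p = 0.0205). At Day 5 the difference was -0.55 ± 0.19 (SE), 0.683-fold, with an adjusted p of 0.258 in edgeR and 0.162 in DESeq2. In total 0 of 6 markers were called by edgeR at baseline, beside 0.159% of all genes, and 0 of 6 at Day 5, beside 0.165%. Clu was the 1 of 6 with an unadjusted p under 0.05 at each time, where 8.34% and 14.0% of all genes had one, and the 1 of 6 whose groups did not overlap, where 14.3% and 19.3% of all genes did not. DESeq2 called 1 marker at baseline, where it called 101 genes in total, and 0 at Day 5, where it called 535. It returned no adjusted p for Krt20 in these comparisons.

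The study's 6 tubular markers all had log2 fold changes below 0 in ByJcl against AJcl, with a median of -0.93 at baseline and -1.11 at Day 5 and 0 called. Their sum ran from 1004 to 3565 CPM in AJcl and from 396 to 1473 CPM in ByJcl at baseline. At Day 5 it ran from 1428 to 3711 CPM in AJcl and from 339 to 1276 CPM in ByJcl. The summed genes of thick ascending limb and distal convoluted tubule did not overlap between the substrains, like Clu. At baseline they ran from 522 to 1615 CPM in AJcl and 137 to 511 CPM in ByJcl, and at Day 5 from 828 to 1976 CPM and 98.7 to 518 CPM. Their part in the Clu difference was not tested. With the tubular sum as a covariate the difference of Clu was -0.51 at baseline and -0.28 at Day 5 (adjusted p = 0.277 and 0.515 in edgeR).

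The other 5 markers showed no difference between the substrains that passed a test. At baseline Spp1 had a log2 fold change of -0.85 ± 0.44 (SE) in ByJcl against AJcl and Lcn2 one of 1.46 ± 1.02 (SE), and at Day 5 Havcr1 had 1.58 ± 0.75 (SE) and Lcn2 1.25 ± 1.04 (SE). Adjusted p for these 4 lay between 0.378 and 0.673 in edgeR. With the tubular sum as a covariate Spp1 at baseline was at -0.22 and Havcr1 at Day 5 at 2.42, and with all 12 libraries Havcr1 at Day 5 was at 0.77. The baseline value of Lcn2 was 2.21 without replicate 1 of AJcl at baseline and 0.80 without replicate 3 of ByJcl at baseline. The Day 5 value of Lcn2 was 0.03 without replicate 2 of ByJcl at Day 5, 0.40 without replicate 2 of AJcl at Day 5 and 3.71 without replicate 3 of AJcl at Day 5. Beyond Havcr1, the interaction gave values from -0.43 for Sox9 to 1.09 for Krt20 with SE between 0.26 and 1.59. Leaving out 1 library moved the value of Krt20 to 0.38 (replicate 2 of AJcl at Day 5), 2.79 (replicate 3 of AJcl at Day 5) and 4.52 (replicate 3 of ByJcl at baseline), and that of Sox9 to -1.15 (replicate 2 of ByJcl at Day 5). In that comparison 0 of 6 members and 0% of all genes were called by edgeR, with 0 members under an unadjusted p of 0.05, and DESeq2 called 0 members. The widths of these errors leave room for several-fold differences in Lcn2, Krt20 and Havcr1.

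Over the pooled substrains, Spp1 and Clu had a high correlation with the tubular content of the libraries at both times, although no relation passed an adjusted test. Each r pools both substrains. Their Clu levels and their tubular sums at Day 5 did not overlap, so substrain and tubular content cannot be told apart in r. At baseline the Pearson r between log2 CPM and the log2 tubular sum over 6 libraries was 0.926 for Havcr1, 0.868 for Spp1 and 0.855 for Clu, with exact permutation p (two-sided) of 0.0222, 0.0125 and 0.0333. At Day 5 it was 0.892 for Clu and 0.859 for Spp1 (exact permutation p = 0.025 and 0.0444) but 0.218 for Havcr1 (exact permutation p = 0.681). None of the 12 relations passed an adjusted p of 0.05, the lowest being 0.1 (Benjamini-Hochberg over the 12 exact permutation tests). Spearman's rho was 0.943 for Spp1 and 0.829 for Havcr1 at baseline and 0.943 for Clu at Day 5 (exact permutation p = 0.0167, 0.0583 and 0.0167). For Clu at baseline it was 0.771 and for Spp1 at Day 5 0.657 (exact permutation p = 0.103 and 0.175), and for Havcr1 at Day 5 -0.143 (exact permutation p = 0.803). Adjusted p of rho were 0.1 or more.

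The values of r changed when the libraries with extreme tubular sums were left out. Without the 2 libraries farthest from the median tubular sum, r at baseline was 0.245 for Havcr1, 0.712 for Spp1 and 0.153 for Clu, and at Day 5 it was 0.730 for Clu and -0.406 for Spp1. Leaving these libraries out also narrows the range of the tubular sum, so a lower r cannot show that a relation depends on them. Lcn2, Sox9 and Krt20 had r between -0.247 and 0.509 at the 2 times, with exact permutation p of 0.317 or more and adjusted p of 0.633 or more. For these markers rho lay between -0.257 and 0.429 (exact permutation p of 0.419 or more). With 3 libraries per substrain and time, no correlation was computed within a substrain.

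**Figure D3:**
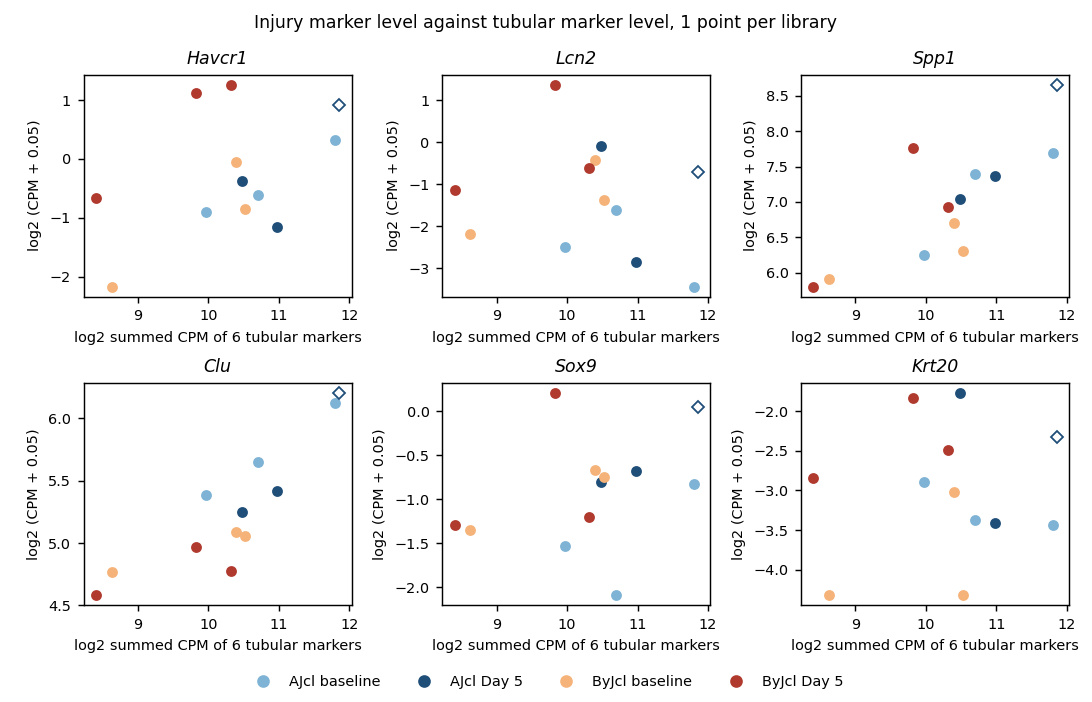
Level of each marker, log2 (CPM + 0.05), against the log2 summed CPM of the study's 6 tubular markers, with 1 point per library coloured by group and the open diamond for replicate 1 of AJcl at Day 5. Spp1 and Clu rise from left to right, while the ByJcl libraries at Day 5 lie above the other groups for Havcr1 at a given tubular sum.

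Relative to the proximal tubule transcripts present, every ByJcl library at Day 5 held more Havcr1 than any other library. The level was divided by the summed CPM of 7 proximal tubule genes (Lrp2, Slc34a1, Slc5a2, Cubn, Slc22a6, Slc13a3 and Miox) in the same library, a scale chosen after the values had been seen. Per 1000 CPM of this sum, Havcr1 stood at 2.42, 3.71 and 1.84 in ByJcl at Day 5. In ByJcl at baseline it stood at 0.591, 0.351 and 0.792, in AJcl at baseline at 0.403, 0.594 and 0.367, and in AJcl at Day 5 at 0.569, 0.242 and 0.644. The lowest ByJcl value at Day 5, 1.84, was above the highest of the other 9, 0.792. On this scale 20% of all tested genes did not overlap between the substrains at Day 5.

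The mean was 2.66 ± 0.959 (SD, n = 3) in ByJcl at Day 5 against 0.578 ± 0.221 (SD, n = 3) at baseline and 0.484 ± 0.214 (SD, n = 3) in AJcl at Day 5. Both differences had an exact permutation p (two-sided) of 0.1, the smallest that this test allows with 3 against 3 libraries, so it cannot reach 0.05 here. In ByJcl, 2 of the 6 markers, Havcr1 and Krt20, did not overlap between the times on this scale, beside 4.45% of all tested genes. For Krt20 this does not hold against the counting limit, since 3 counts in replicate 1 of ByJcl at baseline would be 0.221 per 1000 CPM of the sum, above the lowest Day 5 value. Between the substrains at Day 5 it was Havcr1 alone, 1 of 6 beside 20%, and in AJcl after ADR 0 of 6 beside 2.69%. The denominator was 291, 1436 and 1150.1 CPM in ByJcl at baseline and 241, 569 and 1278 CPM at Day 5. In AJcl it was 1492, 817 and 3258 CPM at baseline and 3245, 1647 and 1126 CPM at Day 5. The part of the denominator in these differences was not tested.

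At baseline 2 of the 6 markers, Lcn2 and Sox9, did not overlap between the substrains on this scale, beside 3.75% of all tested genes. In CPM both overlapped between the substrains at baseline, so the separation appears only after the division. The counts were low, for Lcn2 12, 6 and 2 in AJcl and 8, 16 and 38 in ByJcl. For Sox9 they were 8, 14 and 24 in AJcl and 16, 26 and 32 in ByJcl. Lcn2 was at 0.476 ± 0.209 (SD, n = 3) per 1000 CPM of the sum in ByJcl and 0.118 ± 0.0921 (SD, n = 3) in AJcl, and Sox9 at 0.690 ± 0.431 (SD, n = 3) and 0.214 ± 0.129 (SD, n = 3). The ByJcl mean of Sox9 rests on replicate 1, at 1.18 against 0.380 and 0.507, and the highest AJcl library was at 0.362. Both differences had an exact permutation p of 0.1, the smallest possible. Spp1 and Clu overlapped between all groups compared on this scale. For Clu the means at baseline were 48.8 ± 38.9 (SD, n = 3) in ByJcl and 35.4 ± 14.9 (SD, n = 3) in AJcl. The ByJcl mean rests on replicate 1, at 93.5, while the other ByJcl libraries were at 23.1 and 29.6 and those of AJcl at 33.6, 51.1 and 21.4.

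**Figure D4:**
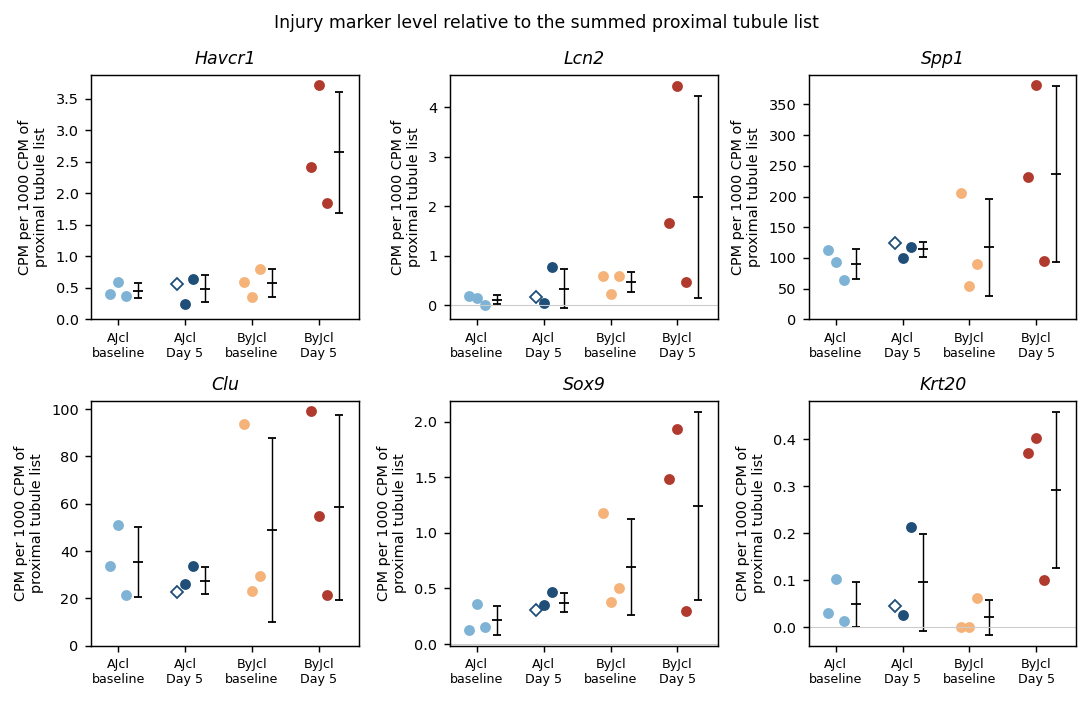
Level of each marker per 1000 CPM of the summed proximal tubule genes (vertical axis, linear), with 1 point per library and the mean ± 1 SD of 3 libraries, and the open diamond for replicate 1 of AJcl at Day 5. For Havcr1 the 3 ByJcl libraries at Day 5 sit between 1.84 and 3.71 and the other 9 at or below 0.792.

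Other genes known from tubular injury and repair did change after ADR in this glomerulus-enriched RNA. Their summed CPM was 16089 in the library with the lowest tubular sum (339 CPM, replicate 1 of ByJcl at Day 5). In the library with the highest (3711 CPM, replicate 1 of AJcl at Day 5) it was 12094.5. The part of tubular content in the change was not tested. Of a list of 41 such genes 39 were tested, Fgb and Mmp7 being too low. The list was chosen with earlier results of these data known, so the shares below describe it and are no independent test. In ByJcl, 19 of the 39 rose, beside 5.75% of all genes, and 1 fell, beside 4.83%, and the median log2 fold change was 0.97 against 0.01 for all genes. The count was 10 without replicate 2 of ByJcl at baseline, beside 2.27% of all genes, and 11 without replicate 2 of ByJcl at Day 5, beside 2.26%. In AJcl, 2 of the 39 rose, beside 0.306%, with a median of 0.24. No count is given without replicate 2 or 3 of AJcl at Day 5, since that group then held a single library. With RLE size factors, halved counts or 2 groups only the AJcl count was 1, beside 0.282%, 0.32% and 0.18%, and with DESeq2 4, beside 1.44% of all genes.

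Cdkn1a, which encodes the p53-responsive cell cycle inhibitor p21, rose in both substrains. It went from 21.8 ± 1.72 to 725 ± 204 CPM (SD, n = 3 each) in ByJcl, 33.0-fold (log2 5.04 ± 0.31 SE, adjusted p = 1.6e-05 in edgeR). In AJcl it rose 15.3-fold (log2 3.94 ± 0.30 SE, adjusted p = 0.000257 in edgeR). Tnfrsf12a, the receptor of the cytokine TWEAK, rose 12.9-fold in ByJcl (log2 3.69 ± 0.38 SE, adjusted p = 0.000895 in edgeR) and 4.38-fold in AJcl (log2 2.13 ± 0.38 SE, adjusted p = 0.0488 in edgeR). The AJcl call of Tnfrsf12a held in 6 of 19 alternatives, with adjusted p up to 0.694, and that of Cdkn1a in 19 of 19.

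Anxa3, an annexin gene, rose 3.94-fold in ByJcl, from 87.8 ± 11.8 to 349 ± 79.6 CPM (SD, n = 3 each, adjusted p = 0.00142 in edgeR). Vim, the gene of the intermediate filament vimentin, rose 2.22-fold, from 798 ± 17.7 to 1792 ± 47.7 CPM (SD, n = 3 each, adjusted p = 0.00255 in edgeR). Krt7, another epithelial keratin gene, was the member of the list that fell, from 62.8 ± 2.82 to 41.1 ± 10.5 CPM (SD, n = 3 each, adjusted p = 0.0246 in edgeR). Several of these genes are also expressed by glomerular cells, and the data do not show which cells carried the change.

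Between the substrains, 0 of the 39 were called by edgeR at baseline or Day 5 and 0 in the interaction. Their median log2 fold change of ByJcl against AJcl was 0.05 at baseline and 0.66 at Day 5, and that of the interaction 0.56. At Day 5 DESeq2 called 14 of them higher in ByJcl, beside 2.27% of all genes higher in that fit. Without replicate 2 or 3 of AJcl at Day 5 that group held a single library, so no such count is given for those fits.

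**Figure D5:**
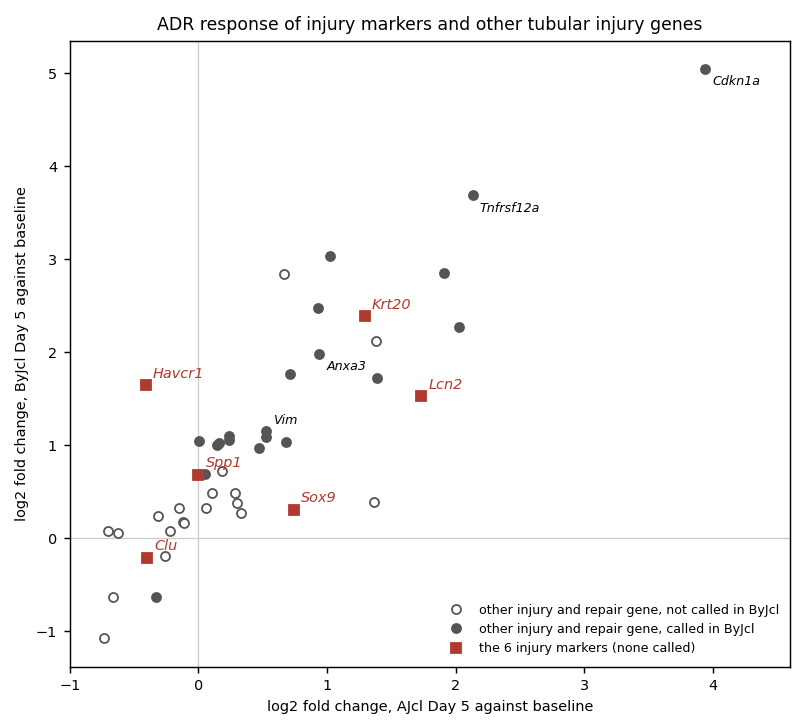
Log2 fold change from baseline to Day 5 in ByJcl (vertical axis) against that in AJcl (horizontal axis) for the 6 injury markers (red squares) and the 39 tested genes of tubular injury and repair (circles, filled where called in ByJcl). Cdkn1a and Tnfrsf12a lie at the upper right with 5.04 and 3.69 in ByJcl, and the 6 markers lie between -0.21 and 2.39 in ByJcl.

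Among the binding partners of the markers, calls appeared in the ByJcl response, and 0 were called in the other 4 comparisons, beside 10.6% of all genes in the former and 0% to 0.312% in the latter. Of 6 integrin subunit genes that serve osteopontin, Itgb1 rose 1.59-fold (adjusted p = 0.00999 in edgeR) and Itgb3 3.29-fold (adjusted p = 0.0342 in edgeR). Itgb5 fell from 835 ± 55.7 to 421 ± 34.9 CPM (SD, n = 3 each, adjusted p = 0.00307 in edgeR). The rise of Itgb3 was uneven, with Day 5 libraries from 12.3 to 59.0 CPM. Slc22a17, the lipocalin 2 receptor gene, fell from 44.7 ± 1.98 to 27.8 ± 6.47 CPM (SD, n = 3 each, adjusted p = 0.0138 in edgeR), and Mmp9, whose protein binds lipocalin 2, was not called. Lrp8, a receptor gene for clusterin, rose from 0.866 ± 0.395 to 3.72 ± 0.816 CPM (SD, n = 3 each, adjusted p = 0.0108 in edgeR), and Vldlr was not called.

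Relatives of the markers were mostly low. Of the TIM family, to which Havcr1 belongs, Timd2 and Havcr2 were tested and not called in any comparison, with Timd2 at 2.73 ± 1.45 CPM in ByJcl at baseline and 1.31 ± 0.985 CPM at Day 5 (SD, n = 3 each). Sox8, a SOXE gene like Sox9, fell in ByJcl from 13.0 ± 0.702 to 5.78 ± 0.331 CPM (SD, n = 3 each, adjusted p = 0.00327 in edgeR). Of 3 cartilage matrix genes known to depend on SOX9, Comp fell from 3.33 ± 1.39 to 0.911 ± 0.0793 CPM (SD, n = 3 each, adjusted p = 0.00657 in edgeR), and Col2a1 and Acan were not called. The other 4 genes of the SIBLING family of osteopontin (Ibsp, Dmp1, Mepe and Dspp), Timd4 and Sox10 were too low to be tested.

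The cells that could carry the markers were represented as follows. The 7 proximal tubule genes summed to 241 to 3258 CPM over the 12 libraries, the 6 genes of thick ascending limb and distal convoluted tubule to 98.7 to 1976 CPM and the 6 collecting duct genes to 10.3 to 241 CPM, with 0 genes called in any comparison. Macrophage genes summed to 29.7 to 110 CPM, and Cd68, named after its value was seen, was the 1 of 6 called, higher in ByJcl after ADR, where 4 of the 6 had log2 fold changes below 0 and the median was -0.58. At baseline the macrophage sum was 34.2 to 52.9 CPM in AJcl and 53.3 to 93.4 CPM in ByJcl. At Day 5 it was 29.7 to 56.1 CPM in AJcl and 59.1 to 110 CPM in ByJcl, with 0 of the 6 genes called between the substrains. Neutrophil genes, of interest for Lcn2, summed to 4.66 to 17.2 CPM, with 0 of the 4 tested called and Ly6g at 0 in AJcl at baseline. At Day 5 this neutrophil sum was 11.02 to 17.2 CPM in ByJcl and 4.66 to 8.43 CPM in AJcl, where 19.3% of all genes did not overlap between the substrains. The means of S100a8, S100a9, Ltf and Ngp were higher in ByJcl. Those of Ly6g (0.0143 against 0.0340 CPM) and Camp (0.0581 against 0.1025 CPM) were lower in ByJcl. The part of the neutrophil sum in the level of Lcn2 was not tested. Urothelial genes, of interest for Krt20, summed to 0.901 to 2.25 CPM with 0 of 4 called. Of the glomerular lists, all 8 podocyte genes fell in ByJcl after ADR (median log2 fold change -1.20), Ehd3 was the 1 of 6 endothelial genes that fell, Cldn1 the 1 of 5 parietal genes that rose (the other 4 lay below 0, and the median of the 5 was -0.28), and 0 of 5 mesangial genes were called, beside 4.83% of all genes lower and 5.75% higher.

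The genes whose levels ran most like those of a marker over the 12 libraries were taken by Pearson r of log2 CPM, as a description without a test, since all points share libraries, substrain and ADR. For Havcr1 they were Nek6 (r = 0.961), Tgm2 (0.948) and Ehd1 (0.928), for Spp1 Bnip3 (0.960), Glrx (0.954) and Emb (0.941), and for Clu Nnt (0.962), Nudt4 (0.960) and Tmem135 (0.953). For Lcn2 they were Clgn (0.891), Popdc2 (0.885) and Frmd7 (0.876). The nearest genes of Sox9 were 1110017D15Rik (0.878), Pof1b (0.859) and Efcab11 (0.835), and those of Krt20 1700086O06Rik (0.902), Slc34a2 (0.896) and Gm9949 (0.896), both from few reads. Among the markers themselves the highest r was 0.760, between Spp1 and Clu, followed by 0.695 between Havcr1 and Krt20, and the lowest was -0.367 between Lcn2 and Clu.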

How the data were processed

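Total RNA of bead-isolated glomeruli was sequenced by the authors as poly(A)-selected, strand-specific paired-end libraries. Per the labels and the study's methods, reads were checked with FastQC, trimmed with Trimmomatic, aligned to GRCm39 with STAR and counted per gene with featureCounts. The deposited values are raw whole-number counts of 26264 gene symbols in 12 libraries, in separate tables for baseline and Day 5, so table and ADR cannot be told apart. The gene annotation and strand setting of the counting are not given in the sources used here.

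Counts were fitted with edgeR 4.0.16 in R 4.3.3 (filterByExpr, TMM, quasi-likelihood, 1 coefficient per group, 7 residual degrees of freedom, common dispersion 0.0521) on 11 libraries without replicate 1 of AJcl at Day 5. The filter left 17002 genes, over which p-values were adjusted by Benjamini-Hochberg in 5 contrasts, and calls are below 0.05. The SE is the log2 fold change divided by the root of the F statistic. In a fit of all 12 libraries 16612 genes and 5 of the 6 markers passed the filter. Log2 CPM for correlations used a prior count of 2. Coordinates and exon lengths came from GENCODE, and figures from matplotlib 3.10.9.

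Alternatives were DESeq2 1.42.0, RLE size factors, no filter, 12 libraries, a replicate block, leaving out each library, 2 groups only, halved counts and the tubular sum as covariate. Without replicate 2 or 3 of AJcl at Day 5 that group held a single library, and the spread came from the other groups. Nothing in the labels names separate animals, so p-values measure the spread between these libraries. Replicates of a group differed by a chi-square per degree of freedom of 44.6 to 271, so none was a copy of another.

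All 6 markers are reported in every comparison. From the list of other injury genes and the partner lists, the text names at most 4 calls in each direction, those of lowest adjusted p, and for each marker the 3 genes with the highest correlation. The markers and lists were chosen with earlier results of these data known. Cd68, the single neutrophil genes given for Day 5 and the partners that were not called were named after their values were seen. A gene of the proximal tubule list is not reported here and was left out of its sum.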

Additional observations from a re-analysis of the deposited data

How the results depend on the processing

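The count of called markers stayed at 0 of 6 in every comparison and under every alternative run, except that 1 was called in ByJcl after ADR with the replicate block (Havcr1) and with the tubular sum as covariate (Havcr1), and 1 at baseline with DESeq2 (Clu). Leaving out any of the 11 libraries gave 0 in each comparison. Over all alternatives the adjusted p of Havcr1 in ByJcl ran from 0.0134 to 0.31 and that of Clu at baseline from 0.0205 to 0.771. Krt20 was too low to be tested over 12 libraries, with halved counts and in most fits of 2 groups. Replicate numbers did not pair the libraries: deviations of same-numbered libraries correlated between -0.238 and 0.375 over 15 pairs, above 0.1 in 4. With the replicate block 26, 1592, 19, 19 and 0 genes were called in the 5 comparisons (AJcl response, ByJcl response, baseline, Day 5, interaction), against 53, 1800, 27, 28 and 0, and the log2 fold change of Havcr1 in ByJcl was 1.70 (adjusted p = 0.0462 in edgeR), and of the 39 other injury genes 1 rose in AJcl.

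Of the marker values, 209 of 221 under alternatives other than leaving out a library kept their sign and their side of the threshold, 9 turned sign and 3 gained a call. None of the values that turned sign was called. With all 12 libraries Havcr1 in AJcl turned to 0.38, Spp1 in AJcl to 0.63, Sox9 at Day 5 to -0.18 and the interaction of Clu to -0.13. With the tubular covariate Havcr1 at baseline turned to 0.29, Spp1 in AJcl to 0.12 and Spp1 at Day 5 to 0.44. In the fit of 2 groups Spp1 in AJcl was at 0.0025, and with the block the Lcn2 interaction was at 0.24. Leaving out 1 library turned 16 of 325 values. In AJcl Havcr1 ranged from -0.94 to 0.058, Lcn2 from -0.74 to 2.57, Spp1 from -0.31 to 0.28 and Krt20 from -0.39 to 2.02, and in ByJcl Sox9 from -0.41 to 0.59. At Day 5 Spp1 ranged from -0.74 to 0.19, Sox9 from -0.56 to 0.43 and Krt20 from -0.69 to 1.71, and in the interaction Lcn2 from -1.43 to 2.27 and Clu from -0.021 to 0.33. The cause was not tested.

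Without the 2 libraries farthest from the median tubular sum, r turned to 0.515 for Lcn2, -0.114 for Sox9 and -0.538 for Krt20 at baseline, and at Day 5 to -0.863 for Havcr1, -0.406 for Spp1, -0.561 for Sox9 and -0.787 for Krt20. With the proximal tubule list in place of the study's tubular markers r of Krt20 at Day 5 was -0.0169. The number of genes called overall with DESeq2 was 301, 2694, 101, 535 and 22 in the same order. With no filter on low counts it was 99, 1705, 30, 56 and 0, with the covariate 144, 2377, 35, 55 and 0, with all 12 libraries 54, 1197, 19, 72 and 0, and in fits of 2 groups 33, 1610, 15 and 6. Leaving out 1 library took the number down to 680 in the ByJcl response (ByJcl Day 5 replicate 2) and to 12 at baseline (AJcl baseline replicate 1). No number is given without AJcl Day 5 replicate 2 or 3, since that group then held a single library. Of the 39 other injury genes, 18 to 23 rose in ByJcl under alternatives other than leaving out a library, beside 4.08% to 8.95% of all genes, a count chosen after seeing the data. Depth limits Krt20, Sox9, Lcn2 and Havcr1, whose counts reach at most 12, 48, 110 and 110.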
